A study of Mus musculus with 2 samples.

Results

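The genes described here carry glucose into the cell, split it to pyruvate and decide whether pyruvate leaves as lactate or enters the mitochondrion. The set holds 34 gene symbols of the 31017 in the matrices. They were chosen by their known place in the pathway and by no cutoff on a value, but with earlier results of these data known. All 34 had at least 1 UMI (unique molecular identifier, 1 counted transcript) in each library. They fall into 5 steps, with 3 genes of transport, 14 of upper glycolysis, 7 of lower glycolysis, 4 of lactate handling and 6 of mitochondrial pyruvate use.

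Retinas of C57BL/6j mice at postnatal day 17 were taken from pups with oxygen-induced retinopathy (OIR) or from controls kept in room air (RA). In OIR, newborn mice pass through a period of high oxygen, which stops the growth of retinal vessels, and then return to room air, where new vessels grow in an abnormal way. Cells positive for CD11b and F4/80, surface proteins of myeloid cells and of macrophages and microglia, were sorted and counted by single-cell RNA-seq. Retinas were pooled before sorting and 1 library was made per condition, so no test between RA and OIR exists, and each 95% interval in parentheses covers counting error only. The labels name neither the sex of the pups nor any genetic change.

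The RA matrix held 1449 cells and 12810892 UMIs, and the OIR matrix 1259 cells and 9835402 UMIs, with 0 cell barcodes in common. Filters kept 1295 RA and 1179 OIR cells, with medians of 9064 and 5427 UMIs. Clusters were formed without the 34 genes and named from markers, which gave microglia (716 RA and 384 OIR cells), dividing cells (11 and 122), macrophages (76 and 99), monocytes (52 and 90) and rods (189 and 154), the light-sensing neurons that the sort should not hold. All 16 microglial markers had UMIs in the microglia of each library, and all 16 rod markers in the rods. Presence alone does not part the classes, since all 16 rod markers also had UMIs in microglia. There they stood at 0.180% (RA) and 0.227% (OIR) of their level in rods. Myeloid clusters with little Malat1, a nuclear RNA, were kept out of these classes by a limit chosen after the data were seen, and they held 7.10% (5.77% to 8.64%) of RA and 19.0% (16.8% to 21.4%) of OIR cells. The libraries also differed as wholes. Among microglia, ribosomal protein genes took 12.5% of RA and 6.74% of OIR UMIs, and Malat1 stood at 18875 and 7457 counts per 1000000 UMIs (CPM). The ribosomal share was lower in OIR in each of the 5 classes. Taking ribosomal and mitochondrial genes out of the total is among the alternatives of the closing section. Any other part of this difference in the results below was not tested.

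Glucose enters cells through facilitative transporters, is trapped by hexokinase, committed to breakdown by phosphofructokinase, and split by aldolase into triose phosphates, from which the enzymes of lower glycolysis draw ATP and make pyruvate. Lactate dehydrogenase turns pyruvate into lactate, which leaves through monocarboxylate transporters. Alternatively, the mitochondrial pyruvate carrier and pyruvate dehydrogenase pass it to the citric acid cycle. Most steps are served by several isoenzymes that differ between tissues. Photoreceptors are known for converting much of their glucose to lactate even where oxygen is present, and activated myeloid cells are known for raised glycolysis.

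Promoters of the members that differed most between OIR and RA microglia are shown because hypoxia-inducible factors, which are known to act on many glycolytic genes, bind sites with the letters ACGTG or GCGTG. The 5 promoters with the highest OIR over RA ratio come first, followed by that of Hk2, the member with the lowest ratio. Each line gives the 150 bases before the RefSeq start of the gene (build GRCm38.p6), 5′ to 3′ on the strand of the gene, with each ACGTG or GCGTG, read on either strand, in capitals.
Slc2a6 (chr2:27027999-27028148, minus strand): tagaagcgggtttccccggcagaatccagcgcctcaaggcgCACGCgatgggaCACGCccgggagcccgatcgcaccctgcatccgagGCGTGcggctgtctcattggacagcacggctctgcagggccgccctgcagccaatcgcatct
Pfkp (chr13:6648772-6648921, minus strand): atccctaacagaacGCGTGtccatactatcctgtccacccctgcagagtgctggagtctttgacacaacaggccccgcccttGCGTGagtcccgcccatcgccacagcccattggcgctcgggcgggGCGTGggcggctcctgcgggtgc
Pgk1 (chrX:106186950-106187099, plus strand): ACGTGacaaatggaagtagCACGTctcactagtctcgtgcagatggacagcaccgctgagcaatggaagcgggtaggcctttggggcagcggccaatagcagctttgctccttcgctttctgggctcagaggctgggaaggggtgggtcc
Pgam1 (chr19:41911721-41911870, plus strand): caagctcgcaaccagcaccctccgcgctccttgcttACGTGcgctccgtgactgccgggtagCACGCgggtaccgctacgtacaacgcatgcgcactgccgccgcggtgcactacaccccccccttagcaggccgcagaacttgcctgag
Tpi1 (chr6:124814159-124814308, minus strand): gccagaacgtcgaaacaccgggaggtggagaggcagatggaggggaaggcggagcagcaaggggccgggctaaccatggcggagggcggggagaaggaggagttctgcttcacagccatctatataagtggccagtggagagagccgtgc
Hk2 (chr6:82774455-82774604, minus strand): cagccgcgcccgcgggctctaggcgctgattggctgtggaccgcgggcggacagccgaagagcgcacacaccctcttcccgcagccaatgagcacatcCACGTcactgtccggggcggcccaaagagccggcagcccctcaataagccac

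RefSeq windows were found for 33 of the 34 members, all but Slc2a3. Of the 49 windows of members, 77.6% held at least 1 such match within 250 bases before the start, against 38.6% of all 32851 windows. Members' windows were also richer in CG pairs, with a median of 14 against 6 over all windows, and among all windows with at least 14 CG pairs the share with a match was 67.3%. A match was present for 12 of the 14 members at least 2-fold higher in OIR microglia and for 14 of the other 16 that were measured.

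In microglia, the resident immune cells of the retina, Aldoa, Tpi1, Gapdh, Pgk1, Pgam1, Eno1, Pkm and Ldha, genes of the route from aldolase to lactate, stood higher in OIR than in RA, from 2.41-fold for Ldha to 4.66-fold for Pgk1. Hk2, which opens the pathway, went the other way. A gene was taken as measured from 30 UMIs over both libraries, and as higher or lower from a 2-fold difference. Of the 30 members measured in microglia, 14 were at least 2-fold higher in OIR and 0 were at least 2-fold lower. Over all genes measured in microglia, 5.08% were at least 2-fold higher and 5.35% at least 2-fold lower. The median log2 ratio of OIR over RA was 0.89 for the members and 0.03 for all genes. Slc2a3, Pfkfb2, Aldoc and Eno2 had too few UMIs to be measured.

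**Figure D1:**
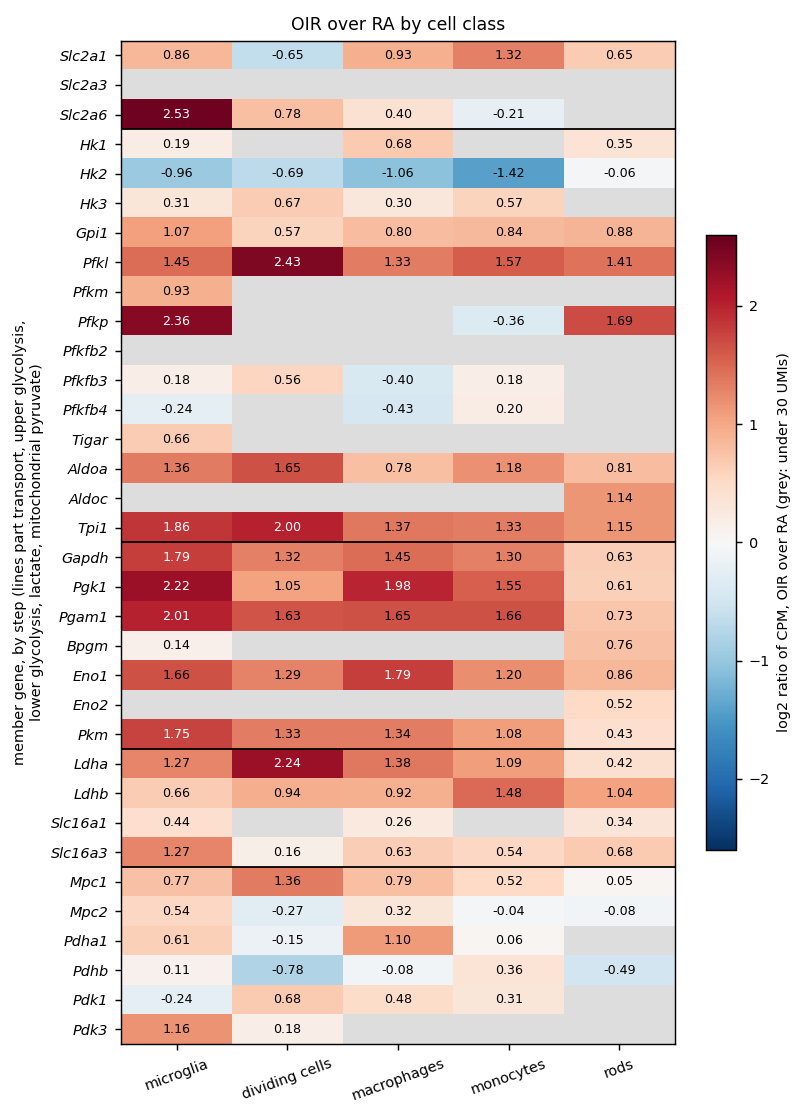
Log2 ratio of CPM, OIR over RA, for each of the 34 members (rows, by step) in the 5 cell classes (columns), with grey where a gene had fewer than 30 UMIs over both libraries. Pfkl and Tpi1 are past 1 in all 5 classes (in dividing cells -0.51 and -0.24 without integration of the libraries), while Hk2 stands at -0.96 in microglia, -1.06 in macrophages and -1.42 in monocytes.

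Among the transporters, Slc2a1 (GLUT1), the common transporter of glial and endothelial cells, stood at 47.3 CPM in RA and 85.9 CPM in OIR microglia, a log2 ratio of 0.86 (0.64 to 1.08). Slc2a6 (GLUT6), an intracellular member of the family found in leukocytes, stood at 9.99 and 57.7 CPM, a log2 ratio of 2.53 (2.15 to 2.93). That was the highest ratio of any measured member in microglia. In consequence the share of Slc2a6 among UMIs of the 3 transporters was 17.0% (13.7% to 20.8%) in RA and 39.6% (35.4% to 43.9%) in OIR. Slc2a3 (GLUT3), the neuronal transporter, had 10 and 7 UMIs in all microglia. In RA and OIR Slc2a6 stood at 17.0 and 22.5 CPM in macrophages and at 56.9 and 49.2 CPM in monocytes. In dividing cells Slc2a6 had 0 UMIs in RA and 44.8 CPM in OIR, which is 1.72-fold higher in OIR when RA is set at a floor of 3 UMIs. In rods Slc2a6 had 1 UMI in RA and 0 in OIR.

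Hexokinase, which traps glucose as its phosphate, was carried in microglia mainly by Hk2, the inducible form bound to mitochondria. Hk2 stood at 254 CPM in RA and 131 CPM in OIR microglia, a log2 ratio of -0.96 (-1.11 to -0.81). The same direction was seen in macrophages, at 180 and 86.5 CPM (-1.06, -1.38 to -0.73), and in monocytes, at 156 and 58.4 CPM (-1.42, -1.94 to -0.92). Rods differed little in Hk2, with 102 and 98.1 CPM. In the 11 RA and 122 OIR dividing cells it stood at 87.1 and 54.1 CPM, with an interval of the log2 ratio from -1.66 to 0.44. Hk3, the form of leukocytes, stood at 34.6 and 43.0 CPM in microglia. The share of Hk3 among hexokinase UMIs was therefore 11.8% (10.5% to 13.2%) in RA and 23.8% (20.6% to 27.3%) in OIR. Hk1, the form of neurons and red cells, made up 1.99% and 3.69% there, and 81.8% and 85.1% in rods.

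The next enzymes of upper glycolysis split into those with a clear gap and those with none. Gpi1, which makes fructose 6-phosphate, stood at 179 and 376 CPM in microglia, a log2 ratio of 1.07 (0.96 to 1.18). Pfkl, the liver-type phosphofructokinase and the main form in these cells, stood at 44.6 and 122 CPM, a log2 ratio of 1.45 (1.24 to 1.66). Pfkl was at least 2-fold higher in OIR in all 5 classes, but in dividing cells on 2 RA UMIs and with a log2 ratio of -0.51 without integration of the libraries. Pfkp, the platelet type, had a ratio of 2.36 (1.24 to 3.59), but on 10 RA and 24 OIR UMIs. Pfkm, the muscle type, was near the limit of measurement at 2.33 and 4.44 CPM. Regulators of the step did not follow the enzyme. Pfkfb3, whose product fructose 2,6-bisphosphate activates phosphofructokinase, stood at 129 and 146 CPM (log2 ratio 0.18, 0.03 to 0.34) and Pfkfb4 at 26.8 and 22.7 CPM. Tigar, which removes that activator, stood at 2.46 and 3.88 CPM. Aldoa, the main aldolase of these cells, stood at 271 and 694 CPM, and Tpi1, which interconverts the triose phosphates, at 94.0 and 341 CPM. The log2 ratios of Aldoa and Tpi1 were 1.36 (1.27 to 1.44) and 1.86 (1.73 to 1.99).

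In lower glycolysis 5 of the 6 measured genes were at least 2-fold higher in OIR microglia, and the UMIs of all 7 genes of the step together stood at 1260 CPM in RA and 4419 CPM in OIR, a 3.51-fold difference. Pgk1, the first step that yields ATP, stood at 68.6 and 320 CPM, a log2 ratio of 2.22 (2.07 to 2.37). Pgam1, phosphoglycerate mutase, stood at 111 and 449 CPM (2.01, 1.89 to 2.13). Gapdh, Eno1 and Pkm had ratios of 1.79, 1.66 and 1.75. The exception was Bpgm, which makes 2,3-bisphosphoglycerate and stood at 7.52 and 8.32 CPM. Counts do not tell the M1 and M2 isoforms of Pkm apart. UMIs of Gapdh, Ldha, Aldoa, Eno1 and Pgam1 could be shared with near-identical copies elsewhere in the genome, so the counting of these genes is less certain.

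Among the lactate genes, the form of the dehydrogenase that favours lactate and the exporter were those past 2-fold. Ldha stood at 221 and 531 CPM in microglia, a log2 ratio of 1.27 (1.17 to 1.36), and Ldhb at 547 and 866 CPM (0.66, 0.60 to 0.73). Ldha thus made up 28.7% (27.6% to 29.9%) of lactate dehydrogenase UMIs in RA and 38.0% (36.7% to 39.4%) in OIR. Slc16a3 (MCT4), the lactate exporter of glycolytic cells, stood at 63.7 and 154 CPM (1.27, 1.09 to 1.45). Slc16a1 (MCT1) stood at 9.60 and 13 CPM, with an interval of the ratio from -0.12 to 0.99. Bsg, the chaperone that brings both transporters to the membrane and no member of the set, stood at 273 and 710 CPM.

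Genes that bring pyruvate into the mitochondrion and oxidise it differed less. The summed level of the 6 genes was 419 CPM in RA and 639 CPM in OIR microglia, a log2 ratio of 0.61 (0.53 to 0.69), the lowest of the 5 steps. Mpc1 and Mpc2, which form the pyruvate carrier, had log2 ratios of 0.77 and 0.54. Pdha1 and Pdhb, subunits of pyruvate dehydrogenase, had 0.61 (0.31 to 0.92) and 0.11 (-0.19 to 0.40). The kinases that switch this enzyme off went apart. Pdk1 stood at 42.3 and 35.8 CPM (-0.24, -0.55 to 0.06) and Pdk3 at 8.04 and 18.0 CPM (1.16, 0.64 to 1.69). Pdk3 carried 16.0% (12.5% to 20%) of the UMIs of these kinases in RA and 33.5% (26.9% to 40.6%) in OIR.

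**Figure D2:**
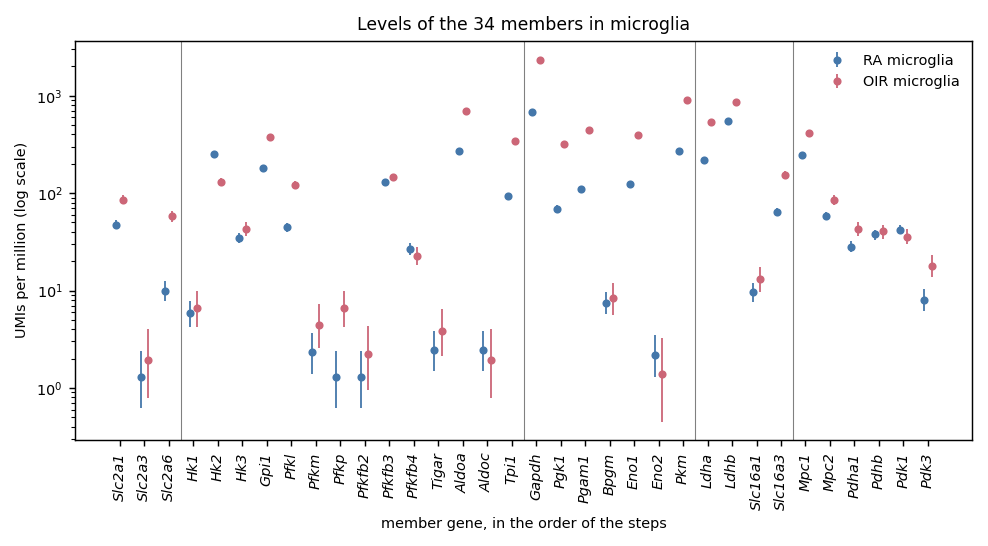
Level of each member in RA (blue) and OIR (red) microglia, in CPM on a log scale, with exact Poisson 95% intervals and lines between the 5 steps. Genes from Aldoa to Pkm stand apart between the libraries except Aldoc, Bpgm and Eno2, whereas Hk2 is higher in RA (254 against 131 CPM). Levels come from 3′ ends of transcripts, and in this figure they are to be compared between libraries, not between genes.

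Microglia fell into 3 clusters, with 278, 295 and 143 RA cells and 192, 111 and 81 OIR cells. The pattern was present in each. At least 2-fold higher in OIR were 13 of 27 measured members in the first (6.79% of all genes), 11 of 25 in the second (4.31%) and 11 of 23 in the third (5%). At least 2-fold lower were 0 members in any of them, against 5.29%, 6.01% and 6.99% of all genes. The log2 ratio of Slc2a6 was 2.43, 2.27 and 2.70, and that of Hk2 -0.95, -0.99 and -0.87. Ldha varied more, at 1.60, 0.68 and 1.24. RNA from rods could add to these levels, so the rod markers were summed. They stood at 287 CPM in RA and 383 CPM in OIR microglia, which is 0.180% and 0.227% of their level in rods. At that share, rods would bring 10.7 CPM of Gapdh to RA and 20.8 CPM to OIR microglia, of 676 and 2339 CPM measured. The part is larger for members that stand further above microglia in rods. In RA the log2 ratio of rods over microglia was 3.14 for Gapdh, 6.3 for Hk1 and 6.72 for Pfkp. Monocyte markers stood at 357 and 1156 CPM and markers of dividing cells at 421 and 707 CPM in RA and OIR microglia, and their part was not tested.

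Single microglia were compared after each was thinned to 1000 UMIs. The median number of UMIs of the 34 members was 3 in RA (range 0 to 13) and 6 in OIR (range 0 to 51). Before thinning the medians were 34.6 and 65.0 per 10000 UMIs. Of OIR microglia, 81.8% lay above the RA median and 41.9% above the 95th percentile of RA, whereas 8.94% of RA microglia lay above the OIR median. The 2 libraries thus overlapped, with a long upper tail in OIR. Highest values in OIR monocytes and macrophages were 24 and 18 UMIs, but among 88 and 99 cells against 384 microglia. A highest value depends on the number of cells. By the 95th percentile, OIR monocytes (16.6 UMIs) and macrophages (13.1) lay below OIR microglia, and OIR dividing cells (21.4) above. Malat1-poor myeloid cells of OIR reached 47.8, with a highest value of 92, so the long tail was not particular to microglia. The median of OIR monocytes was 8 UMIs, above the 6 of microglia.

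**Figure D3:**
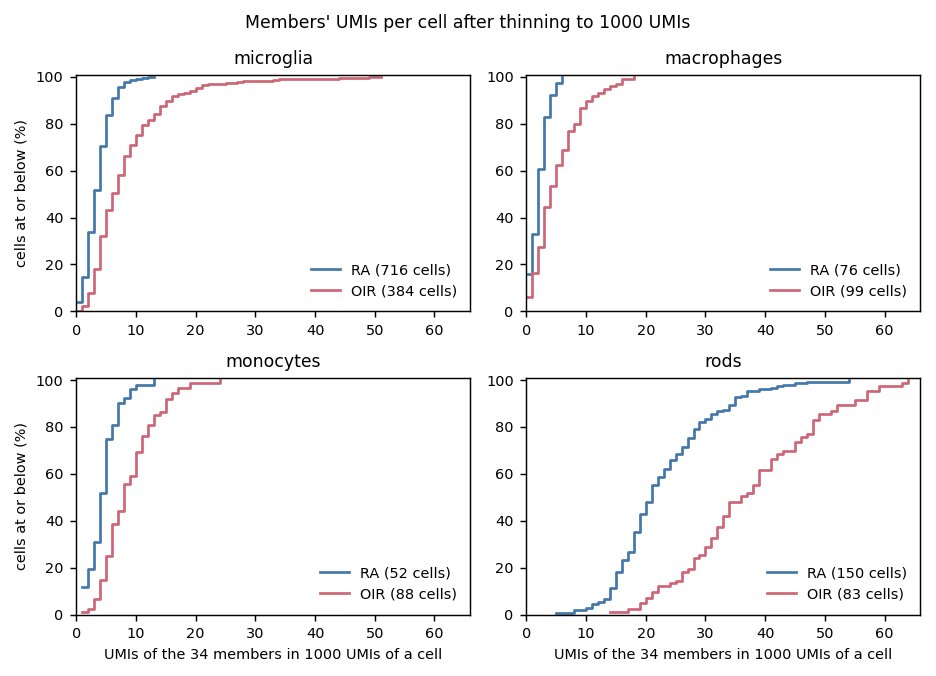
Share of cells (%) at or below a given number of UMIs of the 34 members, after each cell was thinned to 1000 UMIs, for RA (blue) and OIR (red) cells of 4 classes. The OIR line lies to the right of the RA line in all 4 panels, with medians of 3 and 6 UMIs in microglia and 21 and 36 in rods, and 39 RA and 71 OIR rods were too shallow to be thinned.

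In macrophages, which carry Mrc1 and Pf4 among their markers, 9 of 25 measured members were at least 2-fold higher in OIR (8.28% of all genes) and 1, Hk2, was at least 2-fold lower (4.87% of all genes). The median log2 ratio was 0.79 against 0.16 for all genes. The higher members were Pfkl, Tpi1, Gapdh, Pgk1, Pgam1, Eno1, Pkm, Ldha and Pdha1, of which Pgk1 had the highest ratio, at 63.0 and 249 CPM (1.98, 1.62 to 2.36). Pdha1 was past 2-fold in no other class, at 21.3 and 45.6 CPM. Rod markers stood at 1295 and 1116 CPM in macrophages, the highest of the myeloid classes, and rods at that share would bring 48.2 and 60.7 of the 626 and 1705 CPM of Gapdh.

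Monocytes, the blood-derived class, had 24 measured members, of which 11 were at least 2-fold higher in OIR (7.02% of all genes) and 1, Hk2, at least 2-fold lower (6.30%). The median was 0.71 against 0.10. Slc2a1 at 34.8 and 87.0 CPM (1.32, 0.62 to 2.08) and Ldhb at 133 and 370 CPM (1.48, 1.13 to 1.84) were past 2-fold here and not in microglia as a whole. Slc2a1 was, however, at least 2-fold higher in the first microglial cluster too. Its interval in monocytes also covers the log2 ratio of 0.86 in all microglia. These differences between classes were not tested. Pfkp, by contrast, stood at 106 and 82.4 CPM. Its share among phosphofructokinase UMIs was 75.3% in RA and 44.2% in OIR, since Pfkl stood at 34.8 and 103 CPM. Markers of other cells moved with these values. Neutrophil markers stood at 1702 CPM in RA and 318 CPM in OIR monocytes, and microglial markers at 10776 and 21417 CPM, and their part was not tested.

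Dividing cells came almost wholly from OIR, so their RA values rest on 11 cells and 114853 UMIs. There 10 of 23 measured members were at least 2-fold higher in OIR (15.3% of all genes) and 0 at least 2-fold lower (8.80%), with a median of 0.78 against 0.14. That median is the value of Slc2a6, which had 0 UMIs in RA and was set at the floor of 3 UMIs there. Ldha stood at 139 and 660 CPM (2.24, 1.54 to 3.06) and Mpc1 at 148 and 380 CPM. The 11 RA cells also held neutrophil markers at 10648 CPM, which were at 0 in OIR. Without integration of the libraries this class held 25 RA cells and its median turned to -0.23. Within the OIR library dividing cells resembled microglia in most members. Only Pfkp, at 14.4 against 6.65 CPM, was at least 2-fold higher in dividing cells (10.1% of all genes) and only Hk2, at 54.1 against 131 CPM, at least 2-fold lower (4.58%), of 28 measured.

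Rods, sorted along with the myeloid cells, had 23 measured members, of which 5 were at least 2-fold higher in OIR (5.46% of all genes) and 0 at least 2-fold lower (9.19%). The median was 0.65 against 0.15 for all genes. Pfkp stood at 136 and 439 CPM (1.69, 1.13 to 2.27) and Pfkl at 239 and 635 CPM (1.41, 0.98 to 1.86). Aldoc, the brain-type aldolase, stood at 157 and 346 CPM, Tpi1 at 409 and 909 CPM and Ldhb at 85.2 and 176 CPM. All 7 genes of lower glycolysis were measured in rods and stayed under 2-fold. Their summed level was 13956 and 21433 CPM, a log2 ratio of 0.62 (0.56 to 0.68), against 1.81 (1.77 to 1.85) in microglia. Mitochondrial pyruvate genes stood at 494 and 516 CPM in rods (0.06, -0.32 to 0.44). A second group of photoreceptors, rich in Malat1 (118 RA and 79 OIR cells), had 5 of 26 measured members at least 2-fold higher (3.54% of all genes) and 0 at least 2-fold lower (5.86%). The higher members were Pfkl, Pfkp, Tpi1, Pgam1 and Slc16a3. Cone markers stood at 76.6 CPM in RA and 1340 CPM in OIR in this group, and their part was not tested.

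Across the 5 classes, Pfkl and Tpi1 were at least 2-fold higher in OIR in all 5, and Gapdh, Pgk1, Pgam1, Eno1, Pkm and Ldha in the 4 myeloid classes. In dividing cells, without integration of the libraries, the log2 ratio turned to -0.51 for Pfkl, -0.24 for Tpi1, -0.28 for Pgam1, -0.52 for Eno1 and -0.23 for Aldoa. Aldoa followed in 3 classes and Pfkp and Ldhb in 2. A further 8 members did so in 1 class, and 15 in 0 classes, among them all 3 hexokinases and both Pfkfb3 and Pfkfb4. Of the 15, Slc2a3 and Pfkfb2 were measured in 0 classes, Pfkm, Tigar and Eno2 in 1 and Bpgm in 2, so they could hardly be called. The share of all genes past 2-fold in as many classes was not computed, so these counts have no background beside them.

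Levels also differed between rods and microglia of the same library. In RA, 19 of 30 measured members were at least 2-fold higher in rods (24.2% of all genes) and 8 at least 2-fold lower (31.8%), with a median log2 ratio of 2.15 against -0.14 for all genes. The values for all genes include genes with 0 UMIs in rods, set at the floor of 3 UMIs. RA rods held 293287 UMIs against 7709794 in microglia, so the floor can place such genes at least 2-fold higher in rods. The 34 members together took 22613 CPM in RA rods and 3627 CPM in RA microglia. Hk1 stood at 460 against 5.84 CPM, Pfkp at 136 against 1.30 CPM, Aldoc at 157 against 2.46 CPM, Eno2 at 68.2 against 2.20 CPM and Slc16a1 at 249 against 9.60 CPM. These 5 isoenzymes had the highest ratios of rods over microglia among the measured members. Those at least 2-fold lower in rods were Slc2a6, Hk2, Hk3, Pfkfb3, Pfkfb4, Ldhb, Mpc1 and Pdk1. Slc2a6, Pfkfb4 and Pdk1 rest on 1, 1 and 3 UMIs in rods, and the interval of the log2 ratio of Slc2a6 ran from -6.87 to 0.97. Pfkfb3 stood at 3.41 CPM in rods, on 1 UMI, against 129 CPM, a log2 ratio of -5.24 (-10.54 to -2.76). Hk3 had 0 UMIs in RA rods, which is 3.39-fold lower than in microglia when rods are set at a floor of 3 UMIs. In OIR, 18 of 29 measured members were at least 2-fold higher in rods (20.9% of all genes) and 5 at least 2-fold lower (30.8%), with a median of 1.67 against -0.13. The carrier subunits split in RA, with Mpc1 at 64.8 against 244 CPM and Mpc2 at 263 against 58.1 CPM. Rods were also shallower and poorer in Malat1 than microglia. In RA, Malat1 stood at 181 against 18875 CPM, and the median cell held 1457 against 10512.5 UMIs. The part of depth and of Malat1 in these levels was not tested. In the RA photoreceptors rich in Malat1 the members together took 14820 CPM.

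The share that each isoenzyme took of its family thus differed between classes. Shares are of UMIs from 3′ ends of transcripts, and whether these are counted equally well for each gene was not tested. Ldha made up 95.7% and 93.5% of lactate dehydrogenase UMIs in RA and OIR rods, 28.7% and 38.0% in microglia, 50.5% and 58.4% in macrophages and 69.6% and 63.5% in monocytes. Slc16a3 made up 19.8% and 23.8% of the 2 monocarboxylate transporters in rods and 86.9% and 92.2% in microglia. The 3 activator enzymes also divided by class, with Pfkfb3 at 82.1% and 85.4% in microglia. In rods Pfkfb2 took 12 of 14 UMIs of these enzymes in RA (57.2% to 98.2%) and 8 of 9 in OIR (51.8% to 99.7%).

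**Figure D4:**
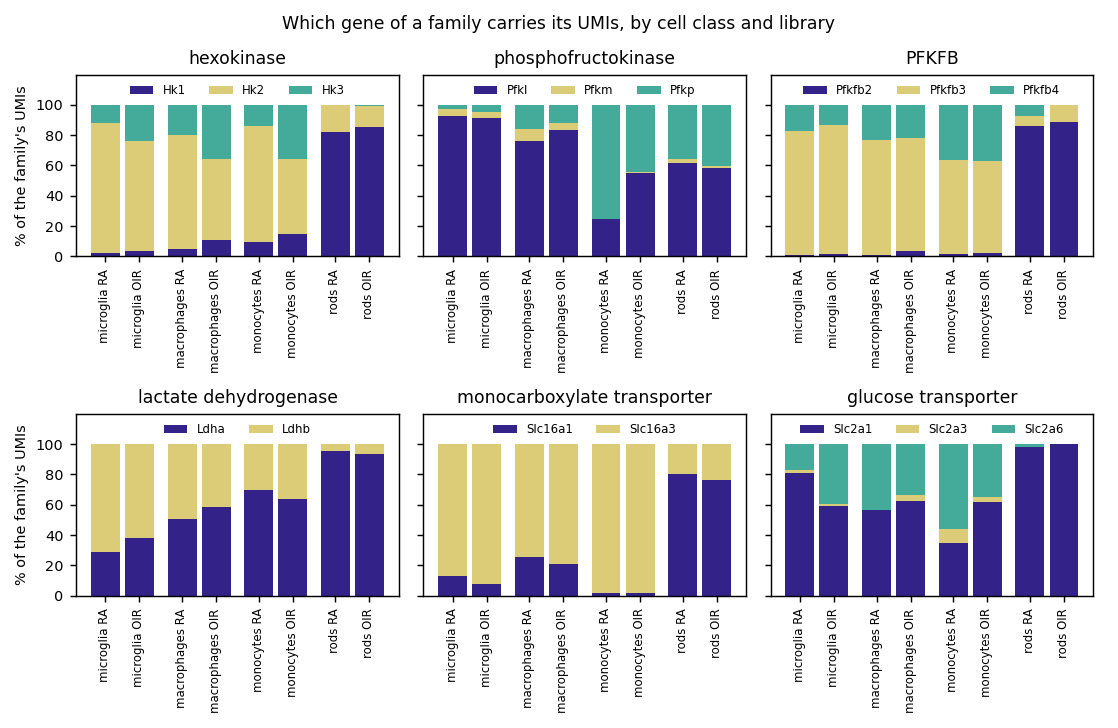
Share (%) of the UMIs of 6 gene families carried by each gene, as stacked bars for RA and OIR microglia, macrophages, monocytes and rods. The largest share belongs to Hk1, Pfkfb2 (on 14 and 9 UMIs of its family), Ldha and Slc16a1 in rods, and in microglia to Hk2, Pfkfb3, Ldhb and Slc16a3, in both libraries, while Slc2a6 takes 17.0% of transporter UMIs in RA and 39.6% in OIR microglia.

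Within the OIR library, both macrophages and monocytes had Hk1 at least 2-fold higher and Pfkfb3 and Ldhb at least 2-fold lower than microglia. In macrophages 1 of 28 measured members was at least 2-fold higher than in microglia (7.40% of all genes), which was Hk1 at 17.7 against 6.65 CPM. Over the alternatives in which Hk1 was measured, among them subtraction of rod RNA, its log2 ratio lay between 1.01 and 1.82. Lower by at least 2-fold were 6 (4.63% of all genes), of which Slc16a3 at 46.3 against 154 CPM and Ldhb at 311 against 866 CPM were the furthest apart. In monocytes 4 of 28 were at least 2-fold higher (10.3% of all genes), namely Hk1, Pfkp, Slc16a3 and Pdha1, and 5 at least 2-fold lower (9.52%), namely Hk2, Pfkfb3, Bpgm, Ldhb and Slc16a1, of which Bpgm and Slc16a1 rest on 3 and 5 UMIs in monocytes. Slc16a3 thus stood at 398 CPM in OIR monocytes, at 154 CPM in microglia and at 46.3 CPM in macrophages. Pfkp stood at 82.4 CPM in monocytes, 12.4-fold above microglia.

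The Malat1-poor myeloid cells, 92 in RA and 224 in OIR, took 5900 CPM in RA and 17940 CPM in OIR for the 34 members together. They pool 3 clusters, with 68, 10 and 14 RA cells and 120, 60 and 44 OIR cells. In OIR the median log2 ratio of the members over microglia was 0.60, 0.77 and -0.43 in these clusters. For all genes it was -0.27, -0.41 and 0.12. The third cluster, unlike the others, was named macrophages, from 3 markers among its top 10 genes. In the OIR macrophage class the median of the members over microglia was -0.53. The counts that follow pool the 3 clusters. Within OIR, 9 of 28 measured members were at least 2-fold higher than in microglia (4.36% of all genes) and 1 at least 2-fold lower (29.8%). Of 22 measured, 12 were at least 2-fold higher in OIR (15.8% of all genes) and 3 at least 2-fold lower (8.76%), with a median of 1.20 against 0.34. Tpi1 stood at 155 and 886 CPM (2.51, 2.11 to 2.94). These cells had medians of 3254.5 and 2401 UMIs, and Malat1 at 2112 and 111 CPM, and the part of depth and of Malat1 in these levels was not tested. Lens markers stood at 8559 and 1137 CPM, endothelial and pericyte markers at 478 and 73.1 CPM and red cell markers at 337 and 140 CPM in RA and OIR, and their part was not tested either. Aldoc, among those lower in OIR, had 124 UMIs in 7 RA cells, of which 1 cell held 61, against 4 UMIs in OIR. Slc16a1 had 18 UMIs in 4 RA cells, of which 1 cell held 14. With Hk2 at 153 and 65.8 CPM (-1.21, -1.82 to -0.61), the direction of Hk2 was that of microglia, macrophages and monocytes.

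Other genes of the pathway, a list of 48 that includes the pentose phosphate route, glycogen enzymes and further isoenzymes, was counted in the same way. In microglia 30 of them were measured, of which 4 were at least 2-fold higher (5.08% of all genes) and 1 at least 2-fold lower (5.35%) in OIR, with a median log2 ratio of 0.42 against 0.89 for the members. The higher genes were Bsg, Gpd2, Pgm2 and Taldo1. Taldo1, transaldolase of the pentose phosphate route, stood at 186 and 413 CPM (1.15, 1.05 to 1.26). In monocytes 1 of 16 measured was at least 2-fold higher (7.02% of all genes), again Bsg, at 177 and 432 CPM. In macrophages it was 1 of 21 (8.28%), Rpe, and in rods 0 of 4 (5.46%), where the median of those 4 was 0.70 against 0.65 for the members. In dividing cells 0 of 17 were at least 2-fold higher (15.3%) and 3 at least 2-fold lower (8.80%). These were Slc2a5, Pygl and G6pdx, which rest on 8, 9 and 6 UMIs in RA.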

How the data were processed

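Raw counts were deposited by the authors as 1 matrix of UMIs per gene and cell for each library, made from 10x Chromium 3′ v3 reads with Cell Ranger (3.1.0 in the matrix header) on mm10 per the labels, without normalization. No deposited columns were left unused (0). Rows that share a symbol were summed. Cells over 20% mitochondrial UMIs and the top 2% by genes were left out, and no doublet caller was run. Seurat 5.3.0 (R 4.3.3) integrated the libraries on 3000 anchor genes and 30 dimensions, without members and related genes (2975 remained), and clustered all cells at resolution 0.5 and Ptprc-positive clusters (at least 10% of cells) again at 0.7. A cluster was named from 3 or more markers among its top 10 genes, or as microglia by a median marker log2 ratio of at least 0.4. Malat1 under 2000 CPM set a myeloid cluster apart, a limit that was not applied to rods or to dividing cells. UMIs were summed per class and library, as CPM with exact Poisson, shares with exact binomial and ratios with exact conditional 95% intervals (Python 3.11.15, scipy 1.17.1), tested on simulated data. A group at 0 was set at 3 UMIs. All 34 members are named, and of related genes those past 2-fold with at least 100 CPM in microglia, and some others after their values were seen. Promoters came from RefSeq (GRCm38.p6). Members, lists and tests were chosen with earlier results of these data known. The alternatives are given in the closing section.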

Additional observations from a re-analysis of the deposited data

Results flagged for a closer look

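Among cells outside the 5 classes, some small groups held members at levels above the highest of any class. Bpgm, whose product lowers the oxygen affinity of haemoglobin, stood at 1249 CPM in the 11 RA and at 4473 CPM in the 8 OIR red cells, against at most 149 CPM in any class. Slc2a1, the transporter of the blood-retina barrier, stood at 1571 CPM in the 5 RA cells named endothelial cells and pericytes, against at most 299 CPM in any class. Of these 106 UMIs, 1 cell held 35. The 9 OIR cells of that name had Slc2a1 at 232 CPM (149 to 345), on 24 UMIs, below that highest class. In the same groups Slc16a1 stood at 1097 CPM (861 to 1377) in RA against at most 315 CPM in any class, and Pdha1 at 193 CPM (118 to 299) in OIR against at most 102 CPM. In an unnamed cluster of 25 RA and 10 OIR cells, Hk2 stood at 421 CPM (284 to 601) in RA against at most 254 CPM. These groups hold too few cells for a comparison between RA and OIR.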

How the results depend on the processing

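No paired analysis was possible because each condition has 1 library, and for the same reason no library was left out. Of 15 alternatives, 2 were chosen after seeing the data (putting the Malat1-poor clusters back, and leaving out for each gene the cell with most of its UMIs). The settings that concern rod RNA were not run on rods. Under the alternatives only members were counted, and the share of all genes past 2-fold was not computed. The number of measured members can also differ between settings. The counts in this section therefore show how many members passed 2-fold, without a background to set them against. In microglia, 11 to 14 members stayed at least 2-fold higher in OIR, and the median log2 ratio lay between 0.72 and 0.97. It lay between 0.55 and 1.55 in macrophages, 0.52 and 1 in monocytes and 0.50 and 0.90 in rods. Of 728 log2 ratios between OIR and RA that belong to members past 2-fold, 676 stayed past it.

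Members at least 2-fold lower in OIR microglia numbered 1 without a limit on genes, 1 without ribosomal and mitochondrial genes in the total, 1 in cells with few rod UMIs and 2 with the Malat1-poor clusters put back. With a mitochondrial limit of 10%, 3 members were lower in OIR macrophages and 1 in OIR rods, and 0 were higher in dividing cells than microglia. Among cells of at least 2000 UMIs, where rods came from a merged photoreceptor cluster, 4 were lower in OIR dividing cells, 3 in macrophages and 1 in rods, and 2 were higher in macrophages than microglia. Without integration, 6 were lower in OIR dividing cells and 3 were higher in dividing cells than microglia, and 5 ratios of dividing cells turned, those of Pfkl (-0.51), Aldoa (-0.23), Tpi1 (-0.24), Pgam1 (-0.28) and Eno1 (-0.52). By means over cells, 3 were lower in OIR dividing cells, 7 higher in OIR monocytes and 0 higher in dividing cells than microglia. Centred on the median of all genes, 3 were higher in OIR rods. With cells thinned to 1000 UMIs, which leaves fewer genes measured, 6 were higher in OIR dividing cells, 5 in macrophages and 5 in monocytes, 0 were lower in OIR macrophages and 0 in monocytes, and 0, 0 and 1 were higher in dividing cells, macrophages and monocytes than microglia. In cells with fewer than 3 rod marker UMIs, 2 were lower in OIR macrophages, 4 higher in OIR monocytes, 2 higher in dividing cells than microglia and 2 in macrophages than microglia. In cells with a Malat1 UMI, of which 29 RA and 11 OIR rods remained, 3 were higher in OIR rods. There 4 ratios of RA rods over microglia turned, those of Slc2a6 (2.41), Hk3 (0.62), Pfkfb4 (0.99) and Pdk1 (0.33). In all 4 the rods had 0 UMIs and were set at the floor of 3 UMIs, so the turn comes from the floor and not from counts. The ratio of Slc2a6 also turned with the mitochondrial limit (0.89) and without the highest cell (0.09), which left rods at 0 and set at the floor of 3 UMIs. Without a minimum of UMIs, 4 were lower in OIR dividing cells, 2 in monocytes, and 2, 3 and 7 were higher in dividing cells, macrophages and monocytes than microglia. With the Malat1-poor clusters put back, and without the highest cell, 0 were higher in dividing cells than microglia. The cause was not tested where none is named.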
